A study of Homo sapiens with 28 samples.

Results

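The comparison described here sets AN3CA cells that expressed wild-type ARID1B against AN3CA cells that carried an empty vector, by RNA sequencing. It takes 2 libraries of ARID1B wild-type (WT), replicates 1 and 2, and the 2 empty vector libraries numbered replicates 3 and 4, which is 4 of the 28 libraries of the series. AN3CA is a human endometrial carcinoma line. All cells were kept in serum-containing medium, none was treated, and polyadenylated RNA was sequenced. Other groups are used only where ARID1B WT is set against them: the ARID1B deletion mutant M2 (S320_G327del), wild-type ARID1A, and empty vector replicates 1 and 2, with 2 libraries each. The labels give neither the vector's promoter nor whether a line came from 1 clone or a pool, and they give no dates. Nor do they tell whether replicates came from separate cultures: the spread that enters the p-values is that between libraries, and it may be technical.

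ARID1B and ARID1A are alternative large subunits of the canonical BAF complex, the mammalian SWI/SNF remodeller that uses ATP to move nucleosomes and open enhancers and promoters. A given complex holds 1 of the pair. Loss of ARID1A is common in endometrial carcinoma, and cells without it are known to lean on ARID1B. BAF activity at enhancers is known to work together with factors of the AP-1 and TEAD families, whose targets include genes of the matrix, of adhesion and of contractile cells.

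The 4 libraries held 16.6 to 22.1 M reads on genes, so 1 count per M reads on genes (CPM) stands for 15.3 to 21.2 reads. In all 4, 98.3 to 98.5% of stranded gene reads lay on the strand opposite to the gene, the strand that was counted. In empty vector replicates 1 and 2 that share was 87.6 and 84.5%. Replicates 3 and 4 also differed from replicates 1 and 2 in expression, with 8315 of 14220 tested genes called between them (4089 higher and 4226 lower in replicates 3 and 4). Where a gene group's direction turns with replicates 1 and 2 as the control, those counts stand beside it, and what sets the empty vector pairs apart was not tested. Each group's replicates differed by more than counting noise (chi-square per degree of freedom 1.96 for ARID1B WT and 2.14 for empty vector replicates 3 and 4), and each was counted as a sample. The epithelial markers CDH1 (E-cadherin) and EPCAM were near 0 in both groups. CDH1 had 0 and 0.0944 CPM with ARID1B WT and 0.131 and 0 CPM with empty vector. EPCAM had 0.330 and 0.283 CPM against 0.458 and 0.390 CPM. Other epithelial markers were expressed, among them KRT18, with 48 and 46 CPM against 10.6 and 11.5 CPM. The 17 tested epithelial markers summed to 245 and 248 CPM with ARID1B WT and 190 and 187 CPM with empty vector. The mesenchymal filament gene VIM had 4807 and 4731 CPM with ARID1B WT, against 6558 and 6614 CPM with empty vector.

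ARID1B RNA itself was the first check of the labels. It had 3438 and 3757 CPM in the ARID1B WT libraries, against 88.5 and 100.4 CPM in the empty vector libraries. The log2 fold change was 5.25 ± 0.079 (standard error, as after every log2 fold change below; adjusted p = 3.14e-26). Reads of the construct and of the cells' own transcript cannot be told apart in gene counts. ARID1A, the alternative subunit, had 203 and 225 CPM with ARID1B WT, against 299.6 and 287 CPM with empty vector, and fell by 0.45 ± 0.085 on the log2 scale (adjusted p = 6.42e-05). Both libraries of each group lay on their own side for both genes. Protein levels were not analysed here.

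Among 28 tested genes of BAF-family subunits, 5 were called higher and 8 lower, with a median log2 fold change of -0.03, beside 23.6% higher and 28.5% lower over all genes tested. Against empty vector replicates 1 and 2, 16 were higher and 7 lower. Over all 14220 genes, that control gave 4389 higher and 4761 lower, the background for every count against replicates 1 and 2 below. A gene counts as called where its p from the two-sided edgeR quasi-likelihood test, adjusted after Benjamini and Hochberg over all 14220 genes, lay under 0.05. DPF3, a histone-reading subunit, had 0.604 and 0.850 CPM with ARID1B WT, against 0.196 and 0.111 CPM with empty vector (log2 fold change 2.25 ± 0.64). Without ARID1B WT replicate 1, 5 were lower, and without ARID1B WT replicate 2 or empty vector replicate 4, 3 were higher. BCL7A rose by 0.58 on the log2 scale, ACTB by 0.55 and the PBAF subunit gene ARID2 by 0.24. SMARCA4, the ATPase, fell (-0.27 ± 0.042), as did SMARCC1 (-0.30), ACTL6A (-0.32), BRD9 (-0.29), DPF1 (-0.42), GLTSCR1L (-0.24) and SMARCD2 (-0.17). Apart from ARID1B and DPF3, the called changes in this family were between -0.45 and 0.58 on the log2 scale. ARID2, SMARCD2, DPF1, DPF3 and GLTSCR1L were each no longer called when at least 1 of the 4 libraries was left out, and SMARCA4, SMARCC1, SMARCD2 and DPF1 were not lower against empty vector replicates 1 and 2.

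**Figure D1:**
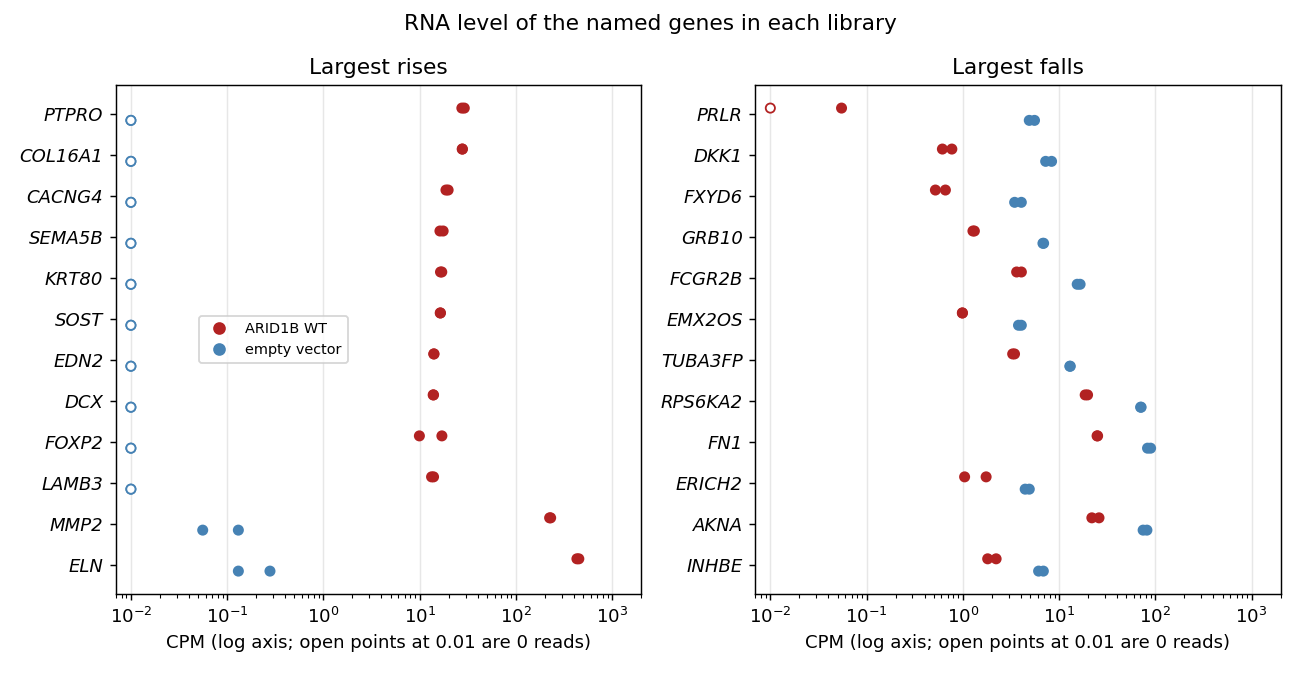
CPM (log axis) of the 12 named genes with the largest rises (left) and the 12 with the largest falls (right), with 1 point per library of ARID1B WT (red) and empty vector replicates 3 and 4 (blue). Open points stand for 0 reads: 10 of the rising genes had none in either empty vector library, and PRLR had none in 1 of the ARID1B WT libraries.

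Over all genes, 3350 of 14220 were called higher with ARID1B WT (23.6%) and 4049 were called lower (28.5%), and the median log2 fold change was -0.04. These shares are the background for every gene list count against empty vector replicates 3 and 4. The excess of lower calls varied with the processing. Another scaling (RLE size factors) gave 3626 higher and 3621 lower, and a fit of only the groups compared gave 4075 and 3818. Large changes ran mostly upwards: 1032 genes were called and at least 2-fold higher (7.26%), against 213 at least 2-fold lower (1.5%). Against empty vector replicates 1 and 2 the imbalance was smaller, with 1217 at least 2-fold higher and 939 at least 2-fold lower. The level in the empty vector cells went with the direction. Of 363 tested genes without a read in either empty vector library, 208 were called at least 2-fold higher (57.3%). The share was 44.4% of 390 genes at up to 0.1 CPM, 16.8% of 1592 genes above 0.1 to 1 CPM and 8.62% of 2401 genes above 1 to 10 CPM. It was 2.2% of 6905 genes above 10 to 100 CPM and 0.934% of 2569 genes above 100 CPM. The share at least 2-fold lower was 0, 0, 3.08, 3.92, 0.825 and 0.506% in the same order. Thus 649 of the 1032 genes (62.9%) had under 1 CPM in the empty vector libraries, and 50 of these were above 10 CPM with ARID1B WT. A gene silent in the empty vector entered the test only because ARID1B WT or another group expressed it, and its level enters both sides of this tally, so these shares are a description and carry no test. Against a floor of 3 reads over the empty vector pair, 196 of the 208 genes without a read were at least 2-fold higher.

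**Figure D2:**
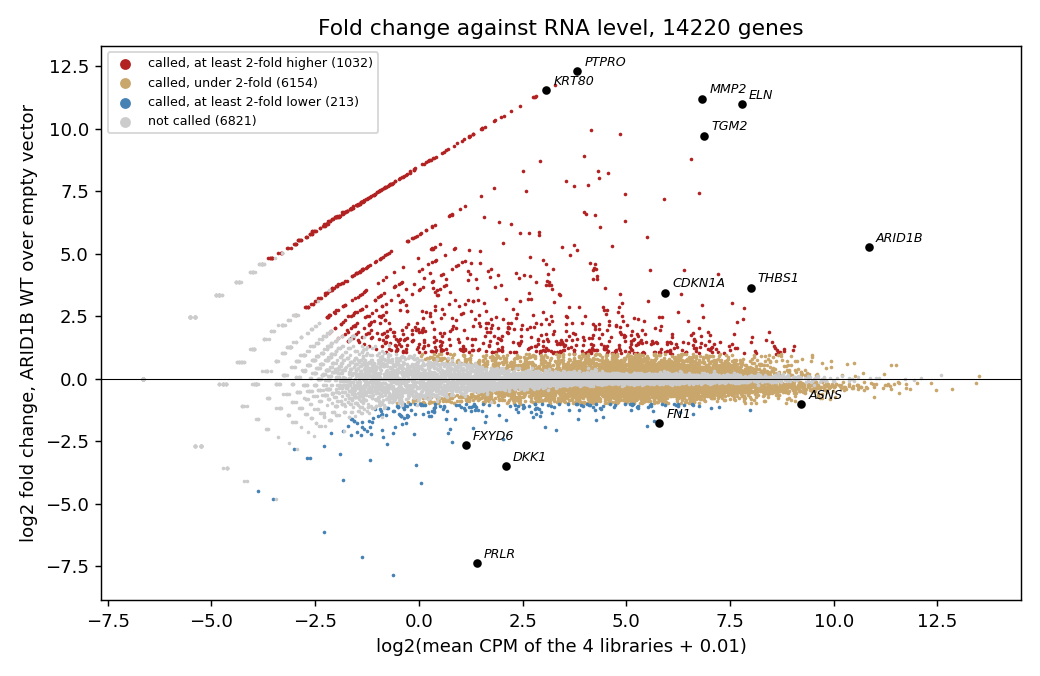
Log2 fold change of ARID1B WT over empty vector replicates 3 and 4 (vertical axis) against the log2 of the mean CPM of the 4 libraries plus 0.01 (horizontal axis), with 1 point per tested gene. Fitted values of genes without a read in empty vector are no bounds. Called genes at least 2-fold higher (1032) outnumber those at least 2-fold lower (213), and named genes are written beside their points.

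**Figure D3:**
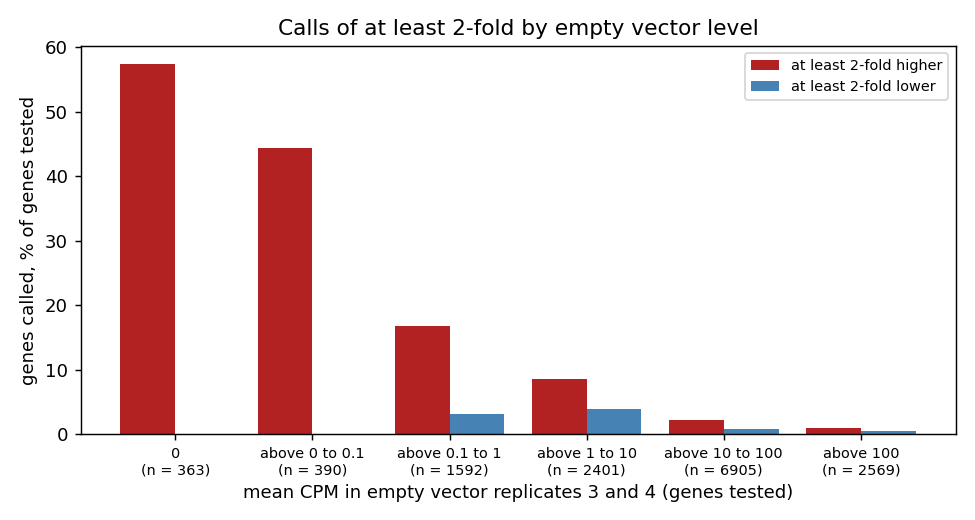
Percent of tested genes called and at least 2-fold higher or lower with ARID1B WT, by their mean CPM in empty vector replicates 3 and 4. The percent higher is 57.3 among genes without a read and 0.934 above 100 CPM, and the percent lower stays at 3.92 or less.

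The 12 genes with the largest fitted rises had few or no reads in the empty vector pair, so their rank rests on fitted values and not on the bounds given here. MMP2, a gelatinase that degrades basement membrane collagen, had 224 and 229.9 CPM with ARID1B WT, against 0.131 and 0.0557 CPM with empty vector. That is 8955 reads against 3, a ratio of 2520 with a 95% counting interval of 861 to 12200 (such intervals cover counting error only). ELN, the elastin gene, had 431 and 451 CPM with ARID1B WT, against 0.131 and 0.279 CPM with empty vector, a log2 fold change of 10.99 ± 0.18 (adjusted p = 2.54e-25). Both genes were thus near 0 in the empty vector libraries. PTPRO, a receptor tyrosine phosphatase, had 29.1 and 27.5 CPM with ARID1B WT, against 0 reads in both empty vector libraries, at least 313-fold higher. COL16A1, a fibril-associated collagen, had 27.9 and 27.7 CPM with ARID1B WT, against 0 reads, at least 308-fold higher. CACNG4, an auxiliary subunit of calcium channels and AMPA receptors, had 19.8 and 18.8 CPM with ARID1B WT, against 0 reads, at least 213-fold higher. PTPRO, COL16A1 and CACNG4 were thus silent in the empty vector pair, where MMP2 and ELN had a few reads.

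Another 7 of these 12 genes also had no read in either empty vector library. The semaphorin gene SEMA5B had 16.3 and 17.6 CPM with ARID1B WT (at least 188-fold higher), and the keratin gene KRT80 had 16.5 and 17 CPM (at least 186-fold). SOST, which encodes the secreted WNT antagonist sclerostin, had 16.4 and 16.5 CPM with ARID1B WT (at least 182-fold), and the endothelin gene EDN2 had 14.1 and 14 CPM (at least 156-fold). DCX, a microtubule-associated gene of migrating neurons, had 14 and 13.8 CPM (at least 154-fold), and LAMB3, a laminin-332 chain, had 14 and 13.3 CPM (at least 151-fold). FOXP2, a forkhead transcription factor, had 9.95 and 17 CPM (at least 152-fold), with the largest gap between the ARID1B WT libraries among these genes. Set against empty vector replicates 1 and 2, where they had some reads, PTPRO (7.65 on the log2 scale), KRT80 (4.72) and EDN2 (5.45) rose by less than these bounds.

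Falls were smaller and fewer. PRLR, the prolactin receptor gene, had 0.0549 and 0 CPM with ARID1B WT, against 5.56 and 4.91 CPM with empty vector. This was 1 read against 173, a level 205 times higher in empty vector (95% counting interval 36.3 to 8150). DKK1, a secreted WNT inhibitor, had 0.769 and 0.614 CPM with ARID1B WT, against 7.26 and 8.36 CPM with empty vector (log2 fold change -3.51 ± 0.23, adjusted p = 1.62e-12). GRB10, an adaptor that dampens insulin and IGF receptor signalling, had 1.32 and 1.27 CPM with ARID1B WT, against 6.80 and 6.91 CPM with empty vector (log2 fold change -2.40 ± 0.17, adjusted p = 5.74e-12). For these genes the groups lay apart without overlap, which the rule for naming genes required. At higher levels, the kinase gene RPS6KA2 had 19.8 and 18.7 CPM with ARID1B WT, against 71.2 and 70.4 CPM with empty vector (log2 fold change -1.88 ± 0.065, adjusted p = 1.84e-18). FN1, the fibronectin gene, had 24.8 and 25.2 CPM with ARID1B WT, against 89.4 and 83.1 CPM with empty vector (log2 fold change -1.78 ± 0.094, adjusted p = 1.40e-14). The other genes among the 12 largest falls were FXYD6, a regulator of the sodium pump, with a log2 fold change of -2.67, FCGR2B (-2.05), the antisense transcript EMX2OS (-1.98), TUBA3FP (-1.94), ERICH2 (-1.72), AKNA (-1.70) and the inhibin subunit gene INHBE (-1.67). FCGR2B and the tubulin pseudogene TUBA3FP share sequence with near-identical relatives, so their counts are uncertain, and TUBA3FP fell by 0.76 against empty vector replicates 1 and 2.

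Structural matrix genes were called higher far more often than lower. Of 11 tested fibrillar and network collagens 9 were higher and 1 lower (median log2 fold change 1.5), and of 15 other collagens 12 were higher and 0 lower (median 2.01). COL3A1 had 530.4 and 531 CPM with ARID1B WT, against 191 and 197 CPM with empty vector (log2 fold change 1.45 ± 0.050). COL1A1 had 25.2 and 29 CPM with ARID1B WT, against 1.18 and 0.390 CPM with empty vector (log2 fold change 5.16 ± 0.20). These chains make the interstitial fibrils of connective tissue. COL12A1, a fibril-associated collagen, had 26.3 and 26.9 CPM with ARID1B WT, against 0.131 and 0.111 CPM with empty vector (7.72 ± 0.20), and COL26A1 had 81.5 and 83.8 CPM, against 19.2 and 21.6 CPM (2.01 ± 0.076). The member that fell was COL27A1, with a log2 fold change of -0.34 ± 0.098.

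Elastic fibre genes, which include the scaffold proteins and cross-linking enzymes of elastin, had 13 of 18 tested members higher and 1 lower (median log2 fold change 1.23). The lysyl oxidase gene LOXL2 had 141 and 149 CPM with ARID1B WT, against 13.1 and 14.4 CPM with empty vector (3.39 ± 0.068). The microfibril gene FBN1 rose by 1.29 and the fibulin gene FBLN2 by 4.59 on the log2 scale, and MFAP4 was at least 47.5-fold higher, against 0 reads with empty vector. FBLN1 fell (-0.34 ± 0.054), and 2 members were lower without ARID1B WT replicate 2. FBN1 was 0.44 higher against empty vector replicates 1 and 2. Thus elastin, its microfibril scaffold and a cross-linking enzyme were all higher with ARID1B WT. Laminins and other basement membrane genes had 7 of 10 higher and 1 lower (median 0.89). LAMB1 had 158 and 161 CPM with ARID1B WT, against 7.59 and 8.19 CPM with empty vector (4.33 ± 0.079), while LAMC3 fell (-0.79 ± 0.18).

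Matrix glycoproteins and proteoglycans had the largest median of the matrix lists, 3.57 on the log2 scale, with 17 of 23 members higher and 1 lower. TNC, which encodes tenascin C, had 186 and 189 CPM with ARID1B WT, against 0.327 and 0.502 CPM with empty vector (8.78 ± 0.16). THBS1, the thrombospondin 1 gene, had 466 and 482 CPM with ARID1B WT, against 35.2 and 40.5 CPM with empty vector (3.64 ± 0.071). SPARC, a collagen-binding secreted protein gene, had 337 and 329.5 CPM with ARID1B WT, against 42.5 and 39.6 CPM with empty vector (3.02 ± 0.052). Tenascin C was near 0 in empty vector cells, whereas THBS1 and SPARC stood above 30 CPM there. LRRC15, a membrane protein gene of matrix-forming cells, had 45.7 and 48.4 CPM with ARID1B WT, against 0.262 and 0.0557 CPM with empty vector (8.24 ± 0.22). BGN (biglycan) was at least 87.7-fold higher, without a read in empty vector, and ISLR had 425 reads with ARID1B WT against 0. The log2 fold changes against empty vector replicates 1 and 2 were 4.70 for TNC and 1.65 for THBS1. The member that fell was FN1, given above; without empty vector replicate 3, 2 members were lower.

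Proteases and inhibitors of the matrix had 11 of 21 members higher and 3 lower (median log2 fold change 0.35), and without ARID1B WT replicate 1 only 1 was lower. Besides MMP2, the urokinase gene PLAU had 20.5 and 22.1 CPM with ARID1B WT, against 0.523 and 0.557 CPM with empty vector (5.29 ± 0.17). TIMP3, a matrix-bound inhibitor of metalloproteinases, had 33.6 and 33.6 CPM, against 1.37 and 1.34 CPM (4.63 ± 0.13). A protease and an inhibitor thus rose side by side, but against empty vector replicates 1 and 2 the log2 fold changes were 4.42 for PLAU and 1.13 for TIMP3. SERPINE2, a serpin that inhibits urokinase and thrombin, fell (-0.81 ± 0.055). Outside the lists, TGM2, the tissue transglutaminase that cross-links matrix proteins, had 232 and 237 CPM with ARID1B WT, against 0.196 and 0.334 CPM with empty vector (9.73 ± 0.12, adjusted p = 4.82e-28). The carboxypeptidase gene CPA4 had 208 and 223 CPM with ARID1B WT, against 1.31 and 1.17 CPM with empty vector (7.44 ± 0.092, adjusted p = 4.90e-28). TGM2 and CPA4 were named after their values were seen.

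Adhesion genes were also called higher far more often than lower. Of 16 tested integrin subunits 11 were higher and 0 lower (median log2 fold change 1.14). ITGB5, a subunit of a vitronectin receptor, had 401 and 402 CPM with ARID1B WT, against 57 and 57.3 CPM with empty vector (2.81 ± 0.051, adjusted p = 1.15e-24). ITGA5, the fibronectin receptor subunit, rose by 3.88, ITGA3 by 1.42 (0.62 against empty vector replicates 1 and 2) and ITGAV by 1.19 on the log2 scale. The receptor subunit for fibronectin was thus higher where fibronectin RNA itself was lower. Focal adhesion adaptors had 16 of 21 higher and 2 lower (median 0.67), among them paxillin (PXN, 1.56 ± 0.063), zyxin (ZYX, 1.53 ± 0.065) and vinculin (VCL, 1.32 ± 0.060). PARVB (-0.40) and TNS3 (-0.18) fell, and 1 member was lower without ARID1B WT replicate 1 or without empty vector replicate 4.

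Genes of smooth muscle contraction had 12 of 17 members higher and 0 lower (median log2 fold change 1.26). Tropomyosin 1 (TPM1) had 193 and 206 CPM with ARID1B WT, against 25.2 and 26 CPM with empty vector (2.96 ± 0.060). ACTA2, smooth muscle actin, rose by 2.76 (0.42 against empty vector replicates 1 and 2), TAGLN by 2.07 and CALD1 by 1.12 on the log2 scale. Targets of the transcription factors TEAD and YAP had 20 of 21 members higher and 1 lower (median 1.23). CYR61 had 71.1 and 71.9 CPM with ARID1B WT, against 13.9 and 14.8 CPM with empty vector (2.32 ± 0.065), and the receptor tyrosine kinase gene AXL rose by 2.85. ANKRD1 had 7.47 and 8.35 CPM with ARID1B WT, against 0.196 and 0.167 CPM with empty vector (5.42 ± 0.24), and CTGF rose by 3.57 on the log2 scale. CTGF had 18 and 15.9 CPM with ARID1B WT, against 1.37 and 1.45 CPM in empty vector replicates 3 and 4 and 15.1 and 15.8 CPM in replicates 1 and 2, over which it was not called. The member that fell was FOXF2 (-0.99 ± 0.27). With empty vector replicates 1 and 2 as the control, CYR61 rose by 0.34, and 17 members were higher and 2 lower.

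**Figure D4:**
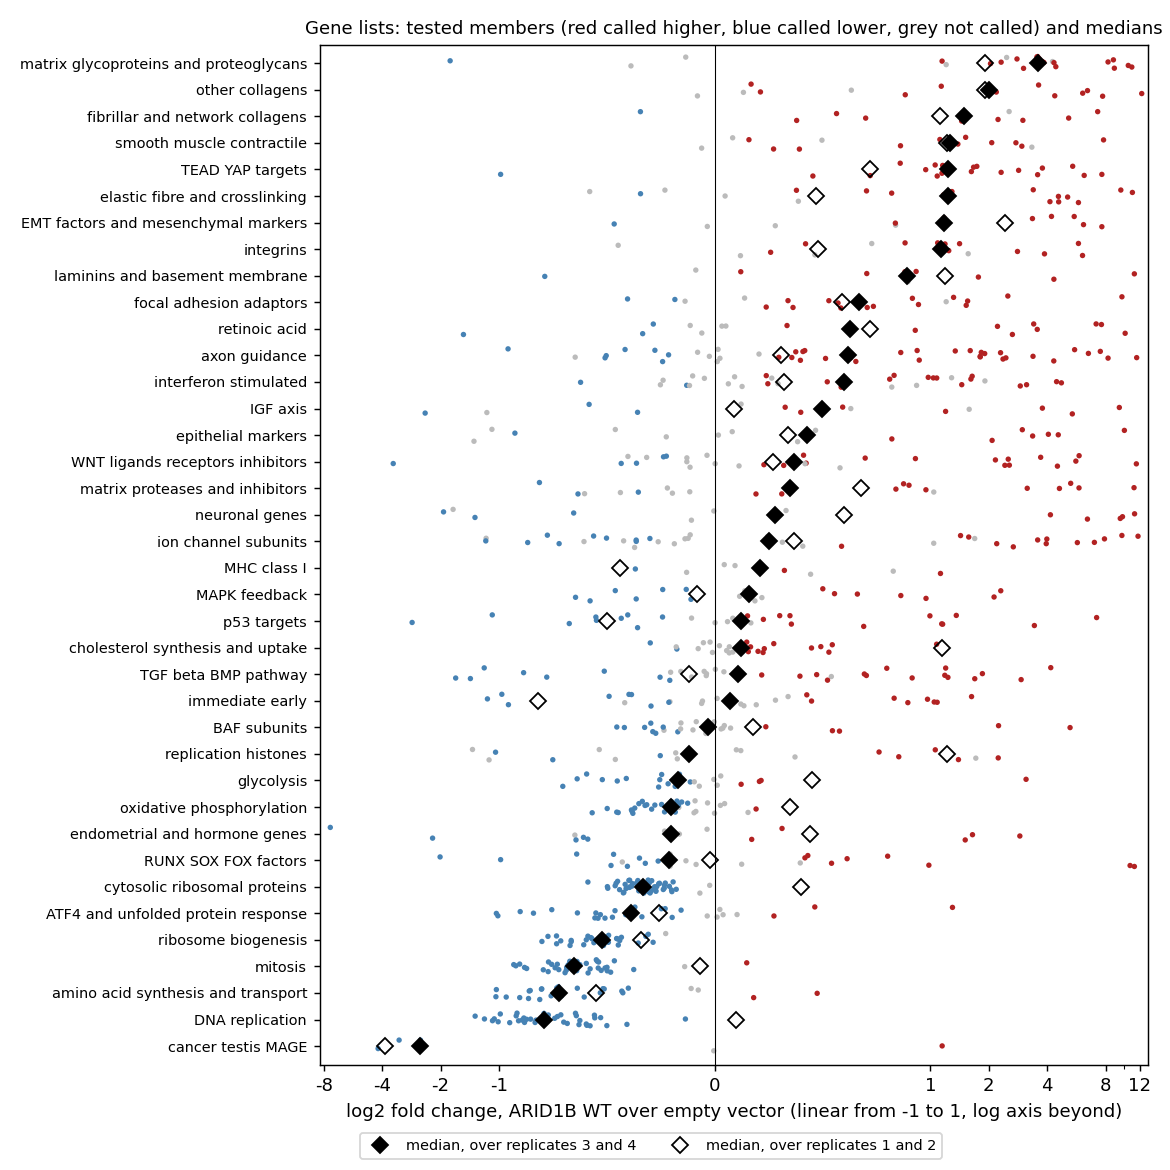
Log2 fold change of ARID1B WT over empty vector replicates 3 and 4 for each tested member of the gene lists (red called higher, blue called lower, grey not called), on an axis that is linear from -1 to 1 and logarithmic beyond. Filled diamonds are list medians and open diamonds the medians over empty vector replicates 1 and 2. Most TEAD/YAP members (20 of 21) are red, all 40 DNA replication members are blue, and the open diamond of DNA replication lies at 0.10.

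Some markers of mesenchymal and of epithelial states were higher. Mesenchymal genes and EMT factors had 7 of 11 tested members higher and 1 lower (median log2 fold change 1.18). PDGFRB, a growth factor receptor of stromal cells, rose by 3.36 ± 0.14 and the EMT factor SNAI2 by 4.21 ± 0.58, while VIM fell (-0.47 ± 0.043, adjusted p = 1.11e-09). Of 17 epithelial markers 7 were higher and 1 lower (median 0.43). The simple-epithelium keratin KRT18 had 48 and 46 CPM with ARID1B WT, against 10.6 and 11.5 CPM with empty vector (2.08 ± 0.090), and KRT7 was at least 63-fold higher, with no read in empty vector. CLDN4, a tight junction gene, rose by 2.98 and KRT8 by 3.37 (1.68 against empty vector replicates 1 and 2), while CD24 fell (-0.93 ± 0.14). Against empty vector replicates 1 and 2, with 3787 and 3789 CPM, VIM was not lower. CDH1 stayed near 0 in all 4 libraries. Markers of other cell types were few: of 14 immune markers 2 were tested and CD68 was called (log2 fold change 2.68), and of 10 endothelial markers 3 were tested and FLT1 was called. FLT1, a VEGF receptor gene, had 29.6 and 33.4 CPM with ARID1B WT, against 0.523 and 0.111 CPM with empty vector.

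Signalling genes moved both ways. Of 30 tested WNT ligands, receptors and inhibitors 15 were higher and 5 lower (median log2 fold change 0.37), with 3 lower when either ARID1B WT library was left out. The ligand gene WNT4 had 10.4 and 10.9 CPM with ARID1B WT, against 0.131 and 0.223 CPM with empty vector (5.84 ± 0.26), and the receptor gene FZD4 rose by 2.17. The antagonists differed among themselves: SOST and SOSTDC1 (2.52 ± 0.17) rose and DKK1 fell. In the TGF-beta and BMP pathway 15 of 33 members were higher and 8 lower (median 0.11). The BMP antagonist gene NOG rose (4.17 ± 0.42), as did the follistatin-like FSTL1 (1.86 ± 0.049). The BMP-responsive ID1 had 80.4 and 80.8 CPM with ARID1B WT, against 189.6 and 179 CPM with empty vector (-1.19 ± 0.082), and ID2 (-1.40) and ID3 (-0.89) fell too. A BMP antagonist was higher and 3 BMP-responsive genes lower in the same cells, and a link between them was not tested. With empty vector replicates 1 and 2 as the control, this pathway had 15 members higher and 16 lower.

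Axon guidance genes, which also steer epithelial and vascular cells, had 30 of 44 members higher and 7 lower (median log2 fold change 0.62; 23 higher and 13 lower against empty vector replicates 1 and 2). SEMA3F, a secreted repellent, had 198 and 192 CPM with ARID1B WT, against 36.2 and 35 CPM with empty vector (2.45 ± 0.055). The netrin receptor gene UNC5B rose by 1.81 on the log2 scale, but it had 338 and 332 CPM in empty vector replicates 1 and 2, above its 149 and 155 CPM with ARID1B WT. Ephrin B1 (EFNB1, 1.91) and the receptor genes EPHA2 (1.34) and PLXNA2 (2.37) rose as well. Of 13 tested neuronal genes 5 were higher and 3 lower, beside 23.6% and 28.5% of all genes. VSTM2L had 2280 reads with ARID1B WT against 2 with empty vector, a ratio of 962 (266 to 7950), and the dendrite microtubule gene MAP2 was at least 45.3-fold higher. Synaptophysin (SYP, -1.33) and TUBB3 (-0.65) fell. Of 37 ion channel subunits 14 were higher and 9 lower, beside the same shares of all genes. CACNA1G (2.68 ± 0.060) and SCN9A (3.99 ± 0.18) were among the rises and KCNG1 (-1.17 ± 0.11) among the falls.

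Among transcription factors of the RUNX, SOX and FOX families 8 of 25 were higher and 9 lower (median log2 fold change -0.21). Over all genes, 23.6% were higher and 28.5% lower. RUNX2, the bone and cartilage regulator, was at least 103-fold higher, with no read in empty vector, and FOXP4 rose by 0.99. SOX2 fell (-2.01 ± 0.67), on only 6 reads with ARID1B WT against 21 with empty vector, a ratio of 4.15 (1.62 to 12.6). SOX9 (-0.26 ± 0.045) and SOX4 (-0.35 ± 0.041) fell as well. Retinoic acid genes had 9 of 16 higher and 3 lower (median 0.63). STRA6, the retinol uptake receptor gene, had 276 reads with ARID1B WT against 1 with empty vector, a ratio of 233 (41.4 to 9230). The synthesis enzymes parted: ALDH1A1 was at least 67.5-fold higher and ALDH1A2 fell (-1.52 ± 0.098). Endometrial and hormone genes had 5 of 15 higher and 5 lower, but 2 higher without empty vector replicate 3, and 8 higher and 5 lower against empty vector replicates 1 and 2. Among them were the leukaemia inhibitory factor receptor LIFR, which rose (1.65 ± 0.11; 0.63 against replicates 1 and 2), and EMX2 (-2.20 ± 0.39), PAX2 (-0.64 ± 0.072) and HOXA10 (-0.59 ± 0.086), which fell. HOXA10 was not lower against empty vector replicates 1 and 2. In the IGF axis 7 of 14 were higher and 3 lower, with IGFBP5 at least 42.2-fold and IGFBP3 3.78 on the log2 scale higher. With replicates 1 and 2 as the control, 5 were higher and 6 lower, and IGFBP3 was 1.16 higher.

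Genes of proliferation were lower with ARID1B WT, and these calls depend on which empty vector pair is used. All 40 tested DNA replication genes were called lower (median log2 fold change -0.79, against -0.04 over all genes). The licensing factor CDC6 had 61.8 and 64.2 CPM with ARID1B WT, against 131 and 132 CPM with empty vector (-1.06 ± 0.049). MCM5, a subunit of the replicative helicase, had 69.1 and 69.4 CPM with ARID1B WT, against 130.3 and 131 CPM with empty vector (-0.92 ± 0.054). CDT1 fell by 1.33 on the log2 scale and PCNA, the polymerase clamp, by 0.60. Of 40 mitosis genes 38 were lower and 1 higher (median -0.65), among them cyclin B1 (CCNB1, -0.67) and Aurora B kinase (AURKB, -0.88). With empty vector replicates 1 and 2 as the control, replication genes had 18 higher and 9 lower (median 0.10), and mitosis genes 10 and 14 (median -0.07). Over all 14220 genes that control gave 4389 higher and 4761 lower. Between the empty vector pairs, all 40 replication genes were higher in replicates 3 and 4. CDC6 had 35 and 33.2 CPM in replicates 1 and 2, which lies below its level with ARID1B WT. CDT1 was not called against replicates 1 and 2. Of 19 tested replication histone genes 5 were higher and 3 lower (15 and 1 against replicates 1 and 2), and near-identical copies leave their single counts uncertain.

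CDKN1A, the p21 cell cycle inhibitor gene, had 112 and 113 CPM with ARID1B WT, against 11.1 and 9.76 CPM with empty vector (3.44 ± 0.076, adjusted p = 1.12e-22). In empty vector replicates 1 and 2 it had 84.4 and 85.7 CPM, still below both ARID1B WT libraries, and against all 4 empty vector libraries together its rise was not called. PLK2, a stress-responsive kinase gene, had 121 and 119 CPM with ARID1B WT, against 0.719 and 0.892 CPM with empty vector (7.19 ± 0.12; 4.74 against replicates 1 and 2). Both are known p53 targets, but of 27 such targets 12 were higher and 9 lower (median 0.12), with ZMAT3 rising (1.00) and PHLDA3 falling (-1.08). Against empty vector replicates 1 and 2 the count was 5 higher and 16 lower, and ZMAT3 was lower. Immediate early genes were also split, 8 higher and 8 lower of 26 (median 0.07), beside 23.6% higher and 28.5% lower over all genes. JUN, an AP-1 subunit gene, had 29.2 and 31.7 CPM with ARID1B WT, against 9.68 and 9.98 CPM with empty vector (1.63 ± 0.086), and FOSL2, another, rose by 0.83. MYC had 93.5 and 93.2 CPM with ARID1B WT, against 206 and 207 CPM with empty vector (-1.15 ± 0.045), and EGR1 fell by 0.96 on the log2 scale. Against empty vector replicates 1 and 2, 0 immediate early genes were higher and 22 lower, and neither JUN nor FOSL2 kept its direction. Genes of MAPK feedback were 7 higher and 7 lower of 18 (4 and 9 against replicates 1 and 2), with the phosphatase gene DUSP5 rising (2.31 ± 0.093) and DUSP6 falling (-0.58 ± 0.036).

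Amino acid and stress-response genes were mostly lower. Of 26 genes of amino acid synthesis and transport 2 were higher and 22 lower (median log2 fold change -0.72), and against empty vector replicates 1 and 2 the count was 3 and 21. Without ARID1B WT replicate 2 or empty vector replicate 3, 1 was higher. ASNS, asparagine synthetase, had 404 and 377 CPM with ARID1B WT, against 811 and 785 CPM with empty vector (-1.03 ± 0.044). The serine synthesis genes PHGDH (-0.86) and PSAT1 (-0.64) and the transporter gene SLC7A5 (-0.90) fell too. Targets of ATF4 and of the unfolded protein response had 3 of 28 higher and 20 lower (median -0.39; 12 higher and 15 lower against empty vector replicates 1 and 2). ATF4 itself fell by 0.51 on the log2 scale. Cholesterol synthesis and uptake had 12 of 24 higher and 2 lower (median 0.12), led by TM7SF2 (1.08 ± 0.075), with HMGCS1 not called (0.07, adjusted p = 0.264). Without ARID1B WT replicate 1 or empty vector replicate 4, 0 were lower, and without empty vector replicate 3, 1 was. Against replicates 1 and 2 the count was 23 higher and 0 lower.

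Ribosomal protein and energy genes showed small falls that turned with the other empty vector pair, while most ribosome biogenesis genes were lower against both pairs. Of 59 cytosolic ribosomal protein genes 0 were higher and 57 lower (median log2 fold change -0.33), with RPL3 at -0.59 ± 0.048; their many processed pseudogenes leave the single counts uncertain. Against replicates 1 and 2, 48 were higher and 0 lower. Ribosome biogenesis genes were lower in 29 of 30 cases, and in 24 against replicates 1 and 2. Dyskerin (DKC1, -0.80 ± 0.046) and nucleophosmin (NPM1, -0.73 ± 0.048) were lower with ARID1B WT, but NPM1 was higher against replicates 1 and 2 (0.22). Oxidative phosphorylation had 1 of 34 higher and 24 lower, against 26 and 2 with replicates 1 and 2, and glycolysis had 4 of 22 higher and 13 lower, against 17 and 2. The phosphofructokinase gene PFKP went the other way from most glycolysis genes (3.11 ± 0.20). Without empty vector replicate 3, 15 oxidative phosphorylation genes were lower, and without ARID1B WT replicate 2, 2 glycolysis genes were higher.

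Interferon-stimulated genes had 16 of 33 higher and 2 lower (median log2 fold change 0.60; 14 higher and 9 lower against empty vector replicates 1 and 2). Leaving out any of the 4 libraries left 1 lower. IFITM2, a restriction factor against viral entry, had 14.7 and 16 CPM with ARID1B WT, against 0.719 and 0.446 CPM with empty vector (4.74 ± 0.21; 3.82 against replicates 1 and 2). IFITM3 rose by 1.04 and ISG15, a ubiquitin-like modifier, by 0.81 on the log2 scale. Of 8 tested genes of antigen presentation by MHC class I, 2 were higher and 1 lower, beside 23.6% and 28.5% of all genes. Against replicates 1 and 2, 1 was higher and 3 lower, and without ARID1B WT replicate 1 or empty vector replicate 4, 1 was higher. The cancer-testis antigen gene MAGEA4 had 246 and 249 CPM with ARID1B WT, against 257 and 239 CPM with empty vector, and MAGEC2 had 0.110 and 0.0944 CPM, against 1.96 and 1.95 CPM. MAGEC2 (-4.19 ± 0.42) and MAGEC1 (-2.54 ± 0.32) fell, with 1 of 5 tested MAGE genes higher and 3 lower. The higher gene, MAGEA10, had 1.21 and 0.708 CPM with ARID1B WT, against 0.196 and 0.613 CPM with empty vector. With DESeq2, 0 were higher. MAGE family members share sequence, so their single counts are uncertain.

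Promoter sequences from RefSeq (GRCh38.p14, 250 bases before the start) were matched by symbol and searched for short factor motifs on both strands. Of 13300 promoter entries checked, 8071 (60.7%) had the bases after that start within an annotated transcript of the gene. For the others the start is less certain. Of 14220 tested genes, 7893 had exactly 1 entry, as had 487 of the 1032 genes at least 2-fold higher and 99 of the 213 at least 2-fold lower. The AP-1 letters TGANTCA stood in 8.21% of promoters of genes at least 2-fold higher and 2.02% of those at least 2-fold lower, against 3.69% of all tested genes. Among 214 promoters of the 462 genes with a fitted rise of at least 8-fold, 208 of which had no read in empty vector, the share was 11.2%. The TEAD letters GGAATG stood in 12.5% (at least 2-fold higher), 4.04% (lower), 9.48% (all tested) and 16.8% (at least 8-fold higher), and the values that follow keep this order. The RUNX letters TGTGGT varied less (8.01, 7.07, 7.51 and 7.48%). The SP/KLF letters GGGCGG stood in 60.2, 72.7, 69 and 50%, and the CRE letters TGACGTCA in 1.23, 3.03, 3.15 and 0.467%. Median GC content was 65.6, 66.4, 65.2 and 61.8%. These shares are descriptions without a test, and no site or binding is read from them.

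The promoters of 4 matrix and surface genes that rose at least 8-fold and hold AP-1 letters are shown with those of EDN2 and DKK1, named genes that rose and fell and hold TEAD letters. The first 4 were chosen for their AP-1 letters and high level after values were seen. PTCHD2, picked in the same way, also holds AP-1 letters and is not shown. The promoters of the named genes COL16A1, SOST and FN1 hold no AP-1, TEAD or RUNX letters and are not shown either. All are given 5′ to 3′ on the gene's strand, ending at the base before the start given by RefSeq. Capitals mark AP-1, TEAD or RUNX letters.
CPA4 (chr7:130292911-130293160, plus strand): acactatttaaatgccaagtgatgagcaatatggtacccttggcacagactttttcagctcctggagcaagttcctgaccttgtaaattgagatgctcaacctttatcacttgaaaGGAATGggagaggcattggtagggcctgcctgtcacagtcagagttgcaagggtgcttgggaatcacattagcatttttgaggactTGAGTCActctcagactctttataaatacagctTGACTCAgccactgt
LRRC15 (chr3:194369744-194369993, minus strand): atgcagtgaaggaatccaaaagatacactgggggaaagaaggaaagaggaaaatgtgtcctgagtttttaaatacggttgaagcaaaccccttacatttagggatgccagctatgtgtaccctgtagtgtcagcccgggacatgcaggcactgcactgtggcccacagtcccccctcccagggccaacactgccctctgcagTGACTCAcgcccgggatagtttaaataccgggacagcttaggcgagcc
EMP1 (chr12:13196476-13196725, plus strand): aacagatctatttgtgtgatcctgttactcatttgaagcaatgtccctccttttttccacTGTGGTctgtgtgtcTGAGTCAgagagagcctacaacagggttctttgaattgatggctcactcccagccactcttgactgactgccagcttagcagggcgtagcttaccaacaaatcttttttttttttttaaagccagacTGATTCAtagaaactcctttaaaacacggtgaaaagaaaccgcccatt
SLITRK6 (chr13:85799420-85799669, minus strand): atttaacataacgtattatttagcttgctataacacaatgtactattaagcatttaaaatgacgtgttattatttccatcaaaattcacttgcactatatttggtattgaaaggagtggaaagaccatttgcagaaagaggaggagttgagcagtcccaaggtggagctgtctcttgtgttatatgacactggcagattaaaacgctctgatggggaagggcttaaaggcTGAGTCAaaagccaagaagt
EDN2 (chr1:41484684-41484933, minus strand): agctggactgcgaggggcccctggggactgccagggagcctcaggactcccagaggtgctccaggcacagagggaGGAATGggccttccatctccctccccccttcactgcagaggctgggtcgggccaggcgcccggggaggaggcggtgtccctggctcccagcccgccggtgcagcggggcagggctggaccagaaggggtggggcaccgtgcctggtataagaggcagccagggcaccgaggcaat
DKK1 (chr10:52314031-52314280, plus strand): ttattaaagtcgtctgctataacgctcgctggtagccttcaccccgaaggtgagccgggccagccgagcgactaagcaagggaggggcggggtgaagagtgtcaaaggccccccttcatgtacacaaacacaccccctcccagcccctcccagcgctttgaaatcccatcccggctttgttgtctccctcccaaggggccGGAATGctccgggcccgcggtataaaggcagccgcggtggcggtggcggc
CPA4 and EMP1 hold the AP-1 letters at 2 places each, LRRC15 and SLITRK6 at 1, and CPA4 also holds the TEAD letters. EMP1, an epithelial membrane protein gene, had 38.1 and 36.6 CPM with ARID1B WT, against 1.90 and 2.34 CPM with empty vector (4.12 ± 0.11). SLITRK6, a neurite-controlling surface receptor gene, had 30.4 and 34.1 CPM with ARID1B WT, against 0.458 and 0.223 CPM with empty vector (6.58 ± 0.23).

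ARID1B WT was next set against the ARID1B deletion mutant M2, which asks how the short deletion changes the response and needs no empty vector library. Of 14220 genes, 2182 were called higher with ARID1B WT than with M2 (15.3%) and 2711 lower (19.1%), with 246 and 232 at least 2-fold. ARID1B RNA had 3438 and 3757 CPM with ARID1B WT, against 4318 and 4182 CPM with M2 (log2 difference -0.24 ± 0.064, adjusted p = 0.00435). CD44, the hyaluronan receptor gene, had 15.3 and 15 CPM with ARID1B WT, against 0.420 and 0.401 CPM with M2 (5.18 ± 0.20). FREM3, a matrix gene, had 6.37 and 7.93 CPM with ARID1B WT, against 0.191 and 0.178 CPM with M2 (5.24 ± 0.34, adjusted p = 4.92e-11). CD44 and FREM3 were thus near 0 with the deletion mutant. The G protein subunit gene GNAI1 (4.91 ± 0.28) and ALDH1A1 (3.73 ± 0.31) completed the 4 largest rises over M2. PRLR had 0.0549 and 0 CPM with ARID1B WT, against 3.86 and 3.52 CPM with M2, and MAGEC2 had 0.110 and 0.0944 CPM, against 4.66 and 3.96 CPM (-5.34 ± 0.33). DKK1 (-4.14 ± 0.20) and MAGEC1 (-3.79 ± 0.25) were the other largest falls.

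Genes of the main response sat at different distances from M2. PTPRO had 29.1 and 27.5 CPM with ARID1B WT, against 3.02 and 3.47 CPM with M2 (3.13 ± 0.12), and COL16A1 27.9 and 27.7 CPM, against 8.41 and 9.53 CPM (1.64 ± 0.095). PLK2 had 121 and 119 CPM with ARID1B WT, against 31.1 and 29.2 CPM with M2 (1.99 ± 0.060). COL26A1 had 81.5 and 83.8 CPM with ARID1B WT, against 18.5 and 17.9 CPM with M2 (2.18 ± 0.073). TGM2 differed from M2 by 0.09 ± 0.048 (adjusted p = 0.165) and LAMB1 by -0.07 ± 0.055 (adjusted p = 0.324), which were not called. Over the same empty vector pair, M2 had 9 of 11 fibrillar and network collagens higher and 1 lower. It had 10 of 15 other collagens higher and 1 lower, and 17 of 23 matrix glycoproteins and proteoglycans higher and 2 lower. Over all 14220 genes M2 gave 3610 higher and 3943 lower. The median log2 differences of ARID1B WT from M2 in these lists were 0.19, 0.01 and 0.16, in this order. Of 21 TEAD/YAP targets 4 were higher and 15 lower with ARID1B WT than with M2 (median log2 difference -0.52). Replication genes were lower than with M2 in 38 of 40 cases (median -0.46) and mitosis genes in 37 of 40. Amino acid genes went the other way, with 24 of 26 higher and 1 lower (median 0.81), and so did ATF4 targets (24 higher, 1 lower of 28). ASNS had 404 and 377 CPM with ARID1B WT, against 94.8 and 88.1 CPM with M2 (2.09 ± 0.047), and CHAC1, a glutathione-degrading enzyme gene of the same response, differed by 2.06 ± 0.085. Cholesterol genes were higher than with M2 in 23 of 24 cases, HMGCS1 among them (0.80 ± 0.050).

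**Figure D5:**
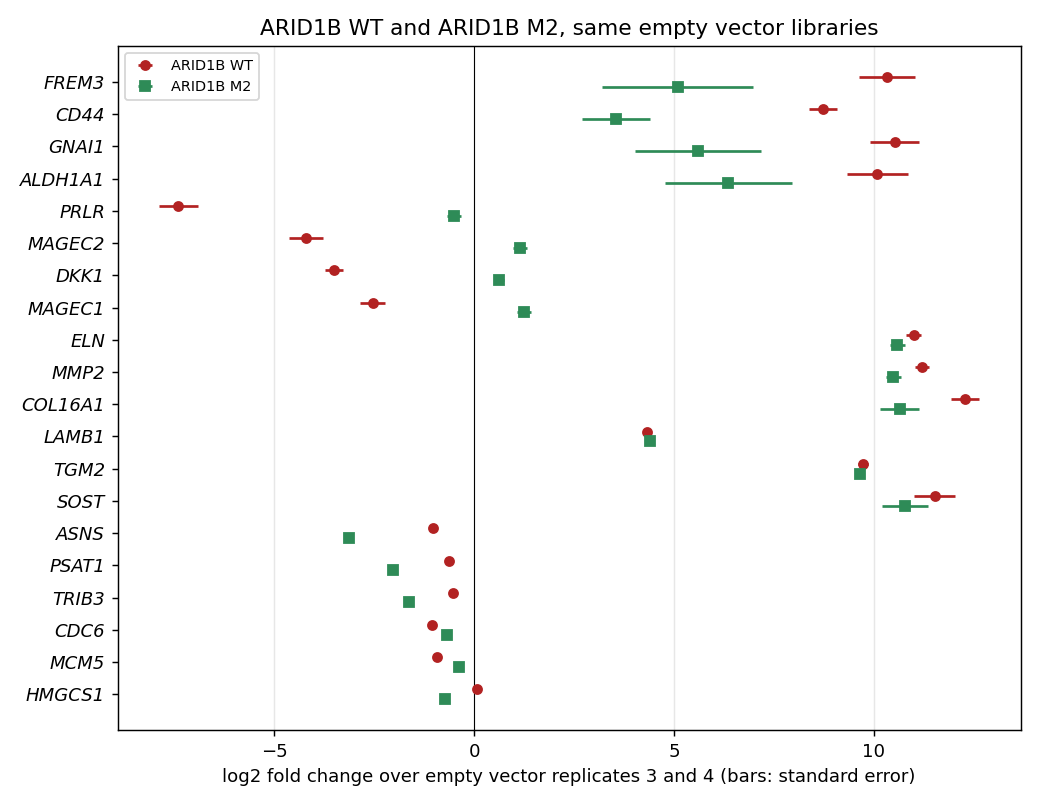
Log2 fold change over empty vector replicates 3 and 4 of ARID1B WT (red circles) and ARID1B M2 (green squares), with standard errors, for the 4 largest differences each way and 12 further genes. The points of LAMB1 and TGM2 lie together, ASNS lies at -1.03 with ARID1B WT and -3.12 with M2, and the fitted values of genes without a read in empty vector are no bounds.

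Last, the response to ARID1B WT over empty vector replicates 3 and 4 was set against the response to ARID1A WT over empty vector replicates 1 and 2, which shares no library with it. The difference of the responses was called higher for ARID1B WT in 2658 of 14220 genes (18.7%) and lower in 3252 (22.9%), with 433 and 566 at least 2-fold. The difference also holds what sets the empty vector pairs apart, whose part was not tested. All 40 replication genes had a lower response to ARID1B WT (median log2 difference -1.18). The controls themselves differed for these genes: all 40 were higher in the pair used for ARID1B WT (median 0.89). With replicates 1 and 2 as the control for both, the median log2 fold change was 0.10 for ARID1B WT and 0.37 for ARID1A WT. MCAM, a cell adhesion gene, had 3.41 and 3.54 CPM with ARID1B WT, against 0.719 and 0.446 CPM in its empty vector pair, while ARID1A WT had 18.6 and 18.2 CPM, against 0.136 and 0.0899 CPM in its own (log2 difference of responses -4.68 ± 0.64, adjusted p = 1.62e-06). RET, a receptor tyrosine kinase gene, had 5.71 and 6.47 CPM with ARID1B WT, against 1.44 and 2.3 CPM, while ARID1A WT had 30.0 and 28.1 CPM, against 1.13 and 1.30 CPM (-2.88 ± 0.31). Both genes rose more with ARID1A WT. SPC24, a kinetochore gene, also had a lower response to ARID1B WT (-2.89 ± 0.24). It had 3.52 and 3.92 CPM with ARID1B WT, against 6.74 and 6.91 CPM in its empty vector pair. That pair lay 1.86 above the other pair on the log2 scale for SPC24.

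Several of the largest rises with ARID1B WT stand beside their levels with ARID1A WT here, with no test, since they had few or no reads in an empty vector pair. EDN2 had 14.1 and 14 CPM with ARID1B WT, against 0 in its empty vector pair, and 1.23 and 1.64 CPM with ARID1A WT, against 0.227 and 0.405 CPM in its own. PTPRO had 18.3 and 18 CPM with ARID1A WT, against 0.181 and 0.0899 CPM in empty vector replicates 1 and 2, and LAMB3 had 9.89 and 9.32 CPM, against 0.0453 and 0.135 CPM. These values compare with 29.1 and 27.5 CPM for PTPRO and 14 and 13.3 CPM for LAMB3 with ARID1B WT. MMP2 had 88.8 and 86.1 CPM with ARID1A WT, against 0.0907 and 0.180 CPM in empty vector replicates 1 and 2. ELN had 43.8 and 46.7 CPM with ARID1A WT, against 0.0907 and 0.0899 CPM.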

How the data were processed

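Polyadenylated RNA of AN3CA cells was sequenced in 28 libraries. The authors deposited 1 raw count table per library, with 26346 gene symbols in STAR's 4-column layout and no normalization. Per the submitters' processing notes, bcl2fastq, STAR 2.5.2b, Bowtie2 2.29 and build hg19 were used; the role of each and the annotation are not given in the sources used here. The counts of opposite-strand reads were analysed. The 4 summary lines of each file, which name no gene (22.5 to 24.1% of reads in the 4 libraries compared), were left out.

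Genes were kept by filterByExpr (14220), libraries were scaled by TMM (0.922 to 0.964 in the 4 libraries), and 1 edgeR 4.0.16 quasi-likelihood fit over 28 libraries in 14 groups, each empty vector pair a group of its own, gave every contrast, two-sided, with Benjamini-Hochberg adjustment over all genes and calls under 0.05. Standard errors are log2 fold changes divided by the root of F. Folds against 0 reads are bounds from 3 reads over the group; ratios carry 95% counting intervals. The fit was checked on simulated data. Figures were drawn in Python 3.11.15 (matplotlib 3.10.9, numpy 2.4.6, pandas 2.3.3), and models were run in R 4.3.3 with DESeq2 1.42.0 and limma 3.58.1.

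The members and the 40 gene lists were chosen with earlier results of these data known; 1153 of 1154 list entries were found in the files. Genes were named by a rule: the 12 largest rises and 12 largest falls (4 each way in other comparisons) among called genes whose average log2 CPM reached 1, with groups that do not overlap and the same sign without regard to strand, plus up to 4 members of each list with the smallest p, further list members with a described role, and the BAF subunits. Other genes were chosen after their values were seen. Many genes that the rule selects are left unreported, mostly list members such as COL4A5, LAMC1 and ITGA6. The ARID1B WT libraries share replicate numbers with M2 but none with the empty vector pair 3 and 4. Promoters are from RefSeq (GRCh38.p14), matched by symbol. Alternatives were DESeq2, RLE size factors, no filter, a stricter filter, unstranded counts, a fit of only the groups compared, other empty vector controls, a replicate block and leaving out each library.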

Additional observations from a re-analysis of the deposited data

How the results depend on the processing

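The total of 7399 called genes stayed within 1.5 times under every alternative run: DESeq2 gave 6674, of which 6532 were shared and had the same direction, and empty vector replicates 1 and 2 as the control gave 9150, of which 5475 were shared and 4272 had the same direction. Leaving out 1 library gave 6195 to 6385 calls for the main comparison, 3534 to 3692 for ARID1B WT against M2 and 5112 to 5385 for the difference from ARID1A WT. With genes whose average log2 CPM reached 1, 498 genes were at least 2-fold higher and 98 at least 2-fold lower, since fewer genes were tested. The number at least 2-fold lower was 939 against empty vector replicates 1 and 2 and 525 against all 4 empty vector libraries; the cause was not tested. RLE size factors moved the median log2 fold change of all genes by less than 0.1. Calls higher and lower were 3626 and 3621 with RLE and 3346 and 3328 with DESeq2, against 3350 and 4049 in the main fit. The replicate block gave 4838 calls for ARID1B WT against M2 (4893 without it). Deviations of their same-numbered libraries correlated at -0.0513, so no replicate effect shared by them was seen across genes. That value cannot tell whether same-numbered libraries were handled together, which the labels do not give. The main comparison shares no replicate number and had no paired fit.

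Of the log2 fold changes of named genes, 2130 values under alternatives kept direction and call, 56 lost the call, 10 gained it and 34 reversed. Against empty vector replicates 1 and 2 the reversed values were SMARCA4 0.14, SMARCC1 0.0018, SMARCD2 0.60, DPF1 0.37, VIM 0.33, UNC5B -1.14, CDC6 0.88, MCM3 0.0046, RRM2 0.54, CCNB1 0.30, PRC1 0.23, ZMAT3 -0.74, JUN -0.33, FOSL2 -0.036, PHLDA1 -0.77, HERPUD1 0.42, RPL3 0.098, RPL13A 0.49, RPL14 0.70, RPL5 0.31, NPM1 0.22, UQCRC2 0.14, ATP5A1 0.12, ATP5B 0.18, PDK1 0.21, SLC2A1 0.34, PSMB10 -0.053, HOXA10 0.73, RARA -0.067 and IGF2BP2 -0.082. Against all 4 empty vector libraries they were UNC5B -0.32, ZMAT3 -0.13, PHLDA1 -0.16 and SMARCD2 0.17. Of the gene list counts, 830 stayed within 1.5 times and 130 moved further. Depth limits genes near 0: at 15.3 to 21.2 reads per CPM, a gene at 0.1 CPM rests on 1 or 2 reads a library.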
